A study of Mus musculus with 22 samples.

Results

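The insulin-like growth factor binding proteins (Igfbp1 to Igfbp7) were followed through all 10 groups of an RNA-seq series on mouse embryonic stem (mES) cells and cultures grown from them. The members were taken by gene symbol, which matched 7 of the 55141 genes in the deposited tables. The family was selected on values already known: the levels of its members across the 10 groups (counts scaled to the library total), and Igfbp5 leading the genotype difference in endoderm, the genotype difference in Activin A gastruloids at 120 h and the wild-type change between 96 h and 120 h. Igfbp5 is therefore described without a test in those contrasts and in the interactions built on them. Its tests in other contrasts that share a group with them reuse known levels. The levels of the other members were known too, so their p-values and counts of calls are not independent of the selection.

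IGF binding proteins are secreted proteins that bind the growth factors Igf1 and Igf2 in extracellular fluid. By holding the ligand they keep it from the Igf1 receptor, and proteases that cut them release it again, so a binding protein can restrain a signal or store ligand for later use. Igfbp3 and Igfbp5 form a long-lived complex with a ligand and the acid-labile subunit, Igfbp2 is a common fetal form, and Igfbp7 is a relative that binds insulin-like growth factors only weakly. In embryos the family is expressed in patterns that differ between tissues.

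The study compared wild-type (wt) cells with cells labelled Hox-/-, described in the series title as lacking all Hox function, Hox genes being the transcription factors that pattern the body axis. mES cells (2 libraries per genotype) were grown in serum with 100 ng/ml LIF, CHIR99021 at 3 µM (it blocks GSK-3) and PD0325901 at 1 µM (it blocks MEK), which keep them pluripotent. Endoderm cultures (3 per genotype) were plated in B27 medium with little serum, received 100 ng/ml Activin A and 3 µM CHIR99021 at 24 h and again at 72 h, and were collected at 120 h. Gastruloids, stem cell aggregates that model the early embryo, were sequenced at 96 h and 120 h as wt Chiron gastruloids, wt Activin A gastruloids and Hox-/- Activin A gastruloids (2 libraries per group), and doses for them are not given in the sources used here. Within the mES cells, and within the endoderm cultures, wt and Hox-/- share the medium given. The labels call the endoderm and gastruloid samples mixed cells. The number of clones behind each genotype is not given, so genotype and cell line cannot be told apart, and nothing says that replicates came from separate cultures, so p-values measure the spread between these samples, which may be technical.

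Libraries held 9.11 to 28.8 M (mega) counts, and in the gastruloids every 96 h library was deeper than every 120 h library. The 39 Hox genes together reached 828 to 877 CPM (counts scaled to the library total) in wt endoderm against 22.5 to 28.6 in Hox-/- endoderm. They lay at 1167 to 1190 against 63.8 to 69.5 CPM in Activin A gastruloids at 120 h, at 625 to 660 against 102 to 104 CPM at 96 h, and at 30.4 to 35.7 against 0.448 to 1.34 CPM in mES cells, so the labels matched the targeted genes in every library. A group in which every library has 3 counts or fewer is called at the floor, which is 0.104 to 0.329 CPM depending on the library. None of the 10 pluripotency markers examined was at the floor in an mES group, and none of the 14 definitive endoderm markers in an endoderm group. This does not tell the cultures apart. No pluripotency marker was at the floor in endoderm either, and no definitive endoderm marker in Chiron gastruloids.

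In the mm10 build the members lie on 4 chromosomes as protein-coding genes. Igfbp2 (chr1:72824503-72852474, plus strand) and Igfbp5 (chr1:72857932-72874884, minus strand) face each other tail to tail with 5457 bases between them. Igfbp1 (chr11:7197782-7202546, plus strand) and Igfbp3 (chr11:7206086-7213923, minus strand) do the same with 3539 bases between them. Igfbp4 (chr11:99041244-99054392, plus strand) is 2.67 Mb (megabases) from the Hoxb cluster, and Igfbp6 (chr15:102144362-102149511, plus strand) is 0.772 Mb from the Hoxc cluster. Igfbp7 (chr5:77349240-77408041, minus strand) overlaps Polr2b, which encodes an RNA polymerase II subunit, by 85 bases. The adjacent pairs did not share a pattern: Igfbp2 was high where Igfbp5 was near its lowest, in mES cells, and Igfbp1 stayed at the floor where Igfbp3 was at its highest.

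The 250 bases before the start of transcription are shown for Igfbp3, Igfbp4 and Igfbp5, the 3 members whose levels varied most between groups, as RefSeq gives them for GRCm38.p6, 5′ to 3′ on the gene's strand, with matches to TATANA or TATTTA on either strand in capitals.
Igfbp3, chr11:7213924-7214173, minus strand: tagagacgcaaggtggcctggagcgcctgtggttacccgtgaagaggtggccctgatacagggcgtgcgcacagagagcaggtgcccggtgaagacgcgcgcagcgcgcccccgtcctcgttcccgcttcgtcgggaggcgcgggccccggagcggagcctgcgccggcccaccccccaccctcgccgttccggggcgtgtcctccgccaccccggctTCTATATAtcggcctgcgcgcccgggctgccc
Igfbp4, chr11:99040994-99041243, plus strand: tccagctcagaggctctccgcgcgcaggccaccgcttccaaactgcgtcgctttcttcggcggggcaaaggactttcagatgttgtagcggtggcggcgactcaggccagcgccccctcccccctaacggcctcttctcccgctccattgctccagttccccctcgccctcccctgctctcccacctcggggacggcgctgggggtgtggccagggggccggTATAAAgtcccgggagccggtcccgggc
Igfbp5, chr1:72874866-72875115, minus strand: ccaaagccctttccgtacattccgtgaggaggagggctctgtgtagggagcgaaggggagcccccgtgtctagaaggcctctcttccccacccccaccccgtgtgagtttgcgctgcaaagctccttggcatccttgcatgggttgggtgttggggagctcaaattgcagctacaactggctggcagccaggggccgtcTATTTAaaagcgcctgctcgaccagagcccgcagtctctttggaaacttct
Each of the 3 windows holds a TATA-like word near the start, TATATA beginning 30 bases before it in Igfbp3 (where an overlapping TCTATA is the same motif on the other strand), TATAAA 28 bases before it in Igfbp4 and TATTTA 51 bases before it in Igfbp5. TATANA occurs in 22.6% and TATTTA in 12.7% of 32851 promoter windows of the same length. The windows differ in base composition, with 73.2% G and C and 32 CpG dinucleotides in Igfbp3, 69.2% and 22 in Igfbp4, and 58.8% and 10 in Igfbp5, against a median of 52.4% and 6 over all windows. The other motifs searched on both strands were TGATNNAT (Hox with Pbx, in 7.68% of all windows), AATNNACA (FoxH1, a partner of Activin signalling, in 10.9%) and CTTTGAT (TCF and LEF, in 3.21%). None of these letters occurred in the 8 windows of the 7 members.

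Igfbp2, a binding protein abundant in fetal tissue, was the most evenly expressed member and spanned 10.5-fold between its highest and lowest group. It stood at 231 and 230 CPM in wt mES cells and at 318 and 299 CPM in Hox-/- mES cells. In endoderm it was 319, 313 and 351 CPM in wt and 284, 248 and 285 CPM in Hox-/-. Igfbp2 was thus high in all adherent cultures, and the genotypes did not overlap in either. In Activin A gastruloids the wt libraries read 248 and 253 CPM at 96 h and 246 and 239 CPM at 120 h. The Hox-/- ones read 125 and 137 CPM at 96 h and 87.2 and 96.4 CPM at 120 h. Chiron gastruloids had the lowest levels, 28.8 and 33.6 CPM at 96 h and 46.4 and 45.4 CPM at 120 h, and did not overlap any other group. In the order of means, wt endoderm and Hox-/- mES cells overlapped, as did Hox-/- endoderm and wt Activin A gastruloids at 96 h.

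Igfbp3, the main carrier of insulin-like growth factors in serum, was high in a single setting, Activin A gastruloids at 96 h. There the wt libraries held 541 and 542 CPM and the Hox-/- libraries 990 and 971 CPM. At 120 h the same cultures held 46.3 and 46.0 CPM in wt and 23.8 and 20.01 CPM in Hox-/-. The genotype with more Igfbp3 at 96 h therefore had less at 120 h, with no overlap at either time. Chiron gastruloids had 56.9 and 65.3 CPM at 96 h and 33.1 and 31.9 CPM at 120 h. Endoderm cultures had 66.7, 57.7 and 61.8 CPM in wt and 64.9, 54.7 and 60.9 CPM in Hox-/-, which overlapped each other and Chiron at 96 h. mES cells had 4.51 and 5.29 CPM in wt and 6.95 and 5.88 CPM in Hox-/-, the lowest level of this gene.

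Igfbp4, which is cleaved by the protease Pappa, was lowest in mES cells, at 1.06 and 0.855 CPM in wt and 4.18 and 4.96 CPM in Hox-/-. It was highest in endoderm, at 123, 131 and 147 CPM in wt and 179, 166 and 181 CPM in Hox-/-. Every Hox-/- library of both cultures lay above every wt library. In wt Activin A gastruloids Igfbp4 was 41.2 and 44.3 CPM at 96 h and 71.0 and 69.9 CPM at 120 h. In the Hox-/- gastruloids it was 16.6 and 13.1 CPM at 96 h and 108 and 102 CPM at 120 h, below wt first and above wt later. Chiron gastruloids went the other way in time, with 80.6 and 84.8 CPM at 96 h and 44.2 and 38.4 CPM at 120 h, and at 120 h they overlapped wt Activin A gastruloids at 96 h. The authors' FPKM, which divide fragments by transcript length and library total, gave another ratio for this gene: 1 FPKM stood for 4.49 CPM in wt Activin A gastruloids at 120 h and for 2.50 CPM in Hox-/- at the same time. GENCODE lists 6 transcripts of Igfbp4, of 452 to 3831 bases, and which of them the libraries hold was not tested.

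Igfbp5, the most conserved binding protein of the family and a component of extracellular matrix, had the widest range, 1030-fold between its highest and lowest group mean. mES cells held 1.46 and 1.94 CPM in wt and 1.79 and 0.840 CPM in Hox-/-. Wt endoderm held 28.1, 35.3 and 38.4 CPM, and Hox-/- endoderm held 226, 214 and 218 CPM. The endoderm genotypes lay far apart, with Hox-/- 6.45-fold higher by mean CPM. In Activin A gastruloids at 96 h Igfbp5 was 13.4 and 15.97 CPM in wt and 6.64 and 8.29 CPM in Hox-/-. At 120 h it was 797 and 768 CPM in wt and 81.7 and 83.6 CPM in Hox-/-, where Hox-/- was 9.47-fold lower. The direction of the genotype difference was thus opposite in endoderm and in gastruloids. Chiron gastruloids held 33.7 and 35.1 CPM at 96 h and 1553 and 1158 CPM at 120 h, the highest level of any member in any group. At 96 h they overlapped wt endoderm.

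**Figure D1:**
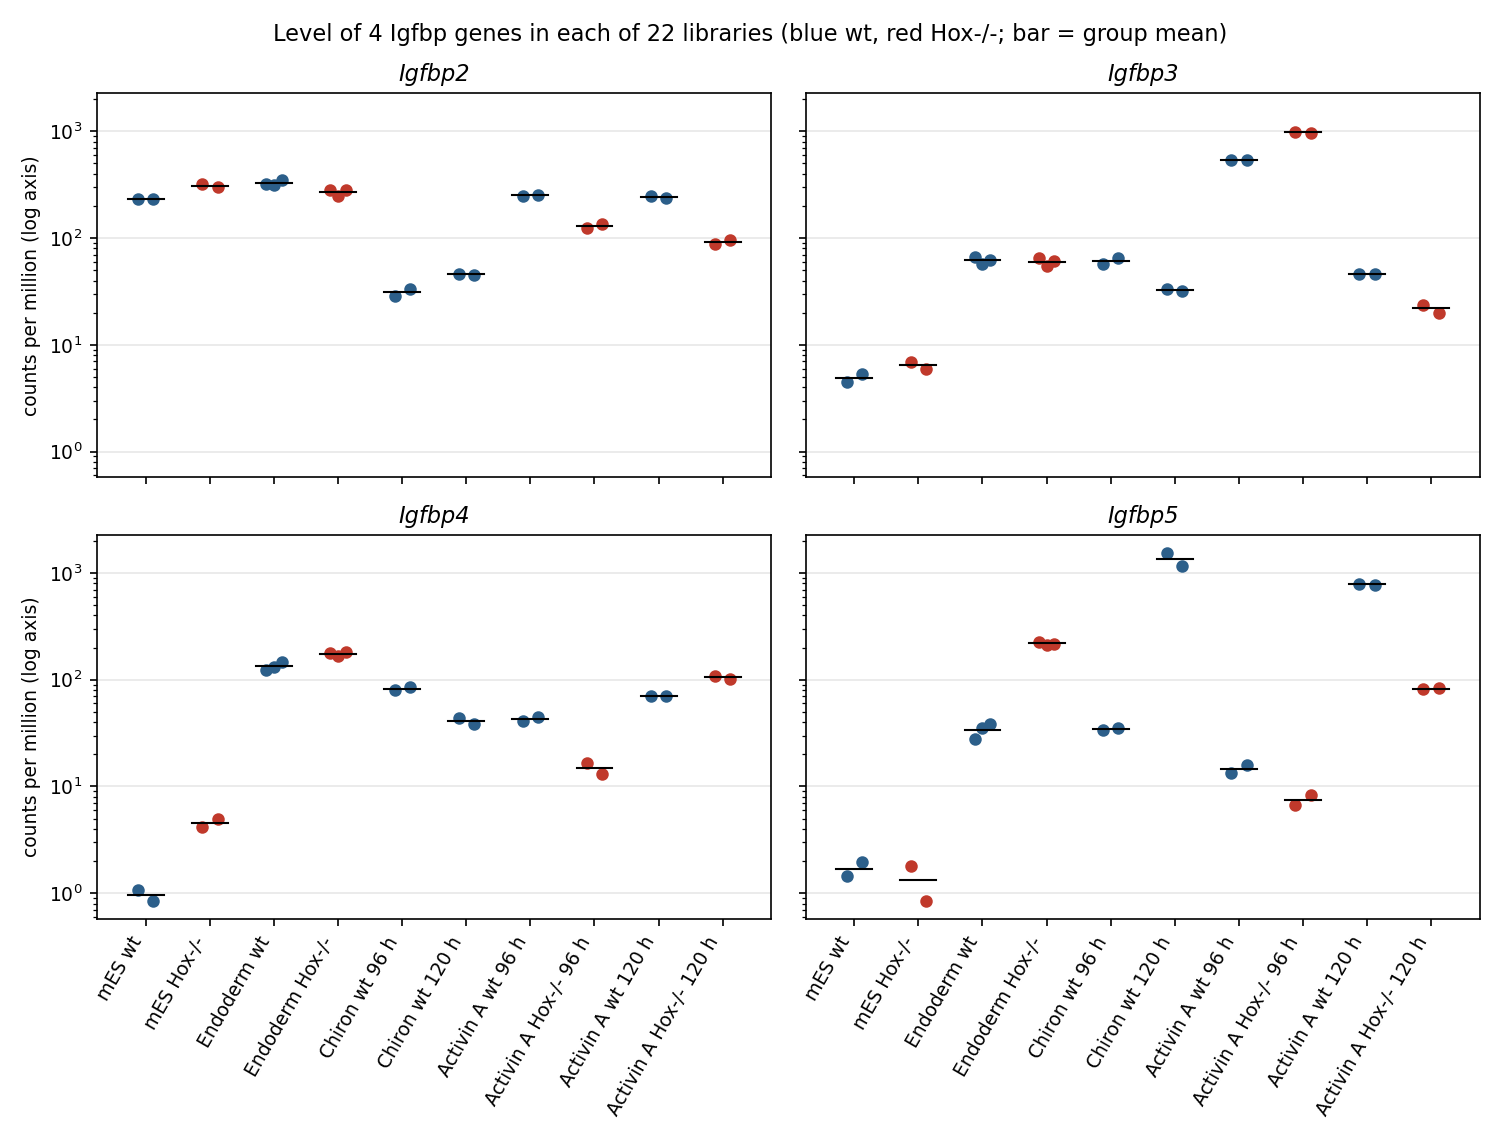
CPM (log axis) of Igfbp2, Igfbp3, Igfbp4 and Igfbp5 in each of 22 libraries, by group, with points for libraries, bars for group means, blue for wt and red for Hox-/-. Igfbp3 peaks in Activin A gastruloids at 96 h (541 to 990 CPM) and Igfbp5 in wt gastruloids at 120 h (768 to 1553 CPM), whereas Igfbp2 stays within 10.5-fold.

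The other 3 members were low or absent. Igfbp1, a binding protein of liver and decidua, held 0 to 3 counts in each library, so all 10 groups were at the floor. Igfbp6, which prefers Igf2, held at most 9 counts in a library, with 5 groups at the floor and a highest group mean of 0.653 CPM in wt Activin A gastruloids at 120 h. Neither passed the filter on low counts in any contrast, nor did Igfbp7 in the gastruloids, and at this depth a level under the floor is not detectable.

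Igfbp7 was found mainly in endoderm, with 48, 66 and 73 counts in wt and 216, 163 and 151 counts in Hox-/-, or 3.89 to 5.33 and 9.51 to 12.3 CPM. mES cells held 37 and 25 counts in wt and 44 and 23 in Hox-/-, and every gastruloid library held 5 or fewer. The Hox-/- endoderm libraries thus lay above all others. These counts are uncertain: the authors' FPKM list Igfbp7 at 0 in all 22 libraries, the gene shares 85 bases with Polr2b, and whether the counting used strand is not given in the sources used here. Polr2b stood at 195 ± 6.06 CPM in wt and 213 ± 4.58 in Hox-/- endoderm (SD, n = 3), and at 132 to 328 CPM over all group means, whereas Gm34648, which also overlaps Igfbp7, had 0 counts throughout.

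Per transcript length, the make-up of the family differed from culture to culture. In FPKM the members summed to 220 ± 1.11 in wt and 298 ± 5.04 in Hox-/- mES cells (SD, n = 2), and Igfbp2 gave 98.8% and 98.5% of these sums. In endoderm the sums were 393 ± 19.8 in wt and 384 ± 23.7 in Hox-/- (SD, n = 3), with Igfbp2 at 76.7% and 64.0% and Igfbp4 next at 15.5% and 20.7%. The endoderm sums overlapped although the shares differed. In Activin A gastruloids at 96 h the sums were 427 ± 4.80 in wt and 483 ± 0.994 in Hox-/- (SD, n = 2). Igfbp3 made up 49.5% of the sum in wt, close to the 47.5% of Igfbp2, but 77.9% in Hox-/-. At 120 h the sums were 335 ± 14.4 in wt and 141 ± 5.91 in Hox-/-, led by Igfbp2 at 56.6% and 55.5%. The second place was taken by Igfbp5 in wt (33.5%) and by Igfbp4 in Hox-/- (29.8%). Chiron gastruloids summed to 88.9 ± 7.06 FPKM at 96 h, led by Igfbp4 (36.7%) and Igfbp2 (30.1%), and to 264 ± 46.2 FPKM at 120 h, of which Igfbp5 was 75.1%. At their peaks 3 members were among the abundant transcripts: ranked by mean FPKM, Igfbp3 was number 198 of 12997 genes with at least 1 FPKM in Hox-/- Activin A gastruloids at 96 h, Igfbp2 number 214 of 12528 in wt endoderm and Igfbp5 number 357 of 11997 in Chiron gastruloids at 120 h. Igfbp7 adds nothing to these sums because of its listed 0.

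**Figure D2:**
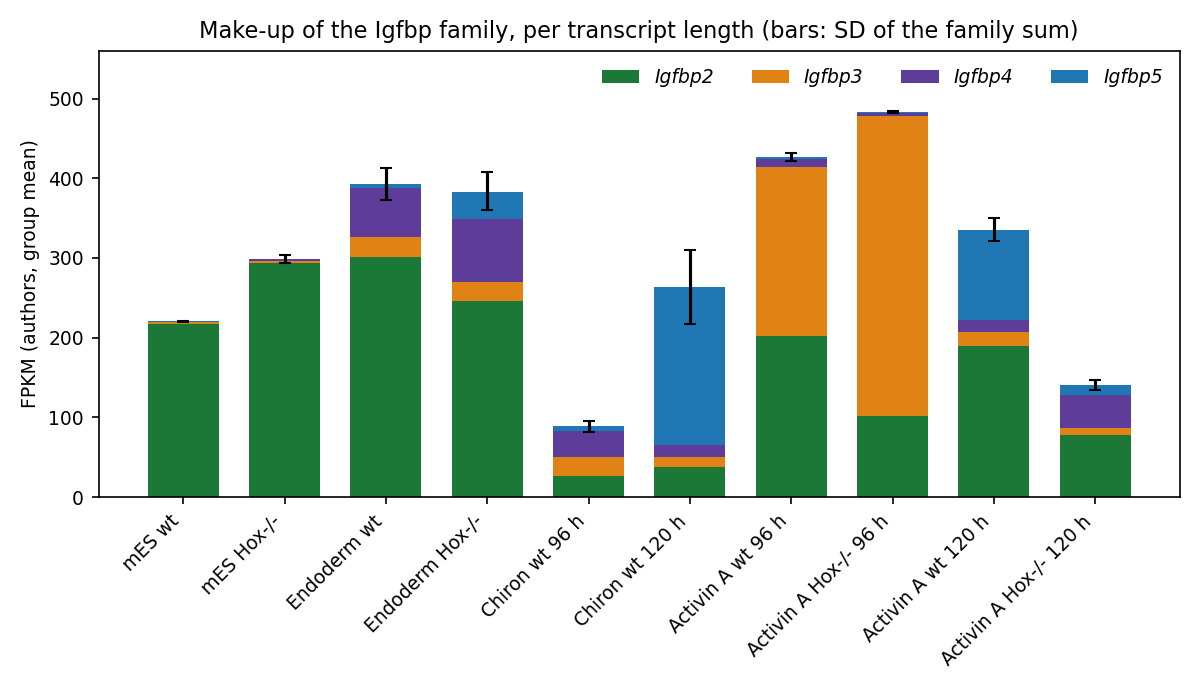
Mean FPKM of Igfbp2, Igfbp3, Igfbp4 and Igfbp5 stacked by group, with error bars for the SD of the family sum over 2 or 3 libraries. Igfbp2 fills nearly the whole bar in mES cells, Igfbp3 most of it in Hox-/- Activin A gastruloids at 96 h (77.9%) and Igfbp5 most of it in Chiron gastruloids at 120 h (75.1%).

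The first comparison set Hox-/- against wt undifferentiated cells, in which genotype and cell line cannot be told apart. Igfbp2 and Igfbp4 rose in Hox-/- mES cells, Igfbp2 by 0.42 ± 0.05 on the log2 scale (SE, edgeR quasi-likelihood test, adjusted p = 7.14e-09) and Igfbp4 by 2.22 ± 0.29 (adjusted p = 2.05e-07). In these bulk samples fewer cells of a type and less RNA per cell cannot be told apart. Of the 7 members 5 were tested and 2 were called, both higher, where 23.2% of all tested genes were called, 12.4% as higher. The median log2 fold change of the 5 was 0.40, against 0.00062 over all genes tested. Igfbp3 (0.40 ± 0.18, adjusted p = 0.109), Igfbp5 (-0.33 ± 0.36, adjusted p = 0.555) and Igfbp7 (0.25 ± 0.28, adjusted p = 0.575) did not pass, all at low levels. The Igfbp4 call rests on low counts too, and on log2(FPKM + 1), fitted with limma, it was not called (0.85, adjusted p = 0.124). Nor was it called by limma on log2(FPKM + 0.1) (1.70, adjusted p = 0.117).

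In endoderm Igfbp4 and Igfbp7 rose and Igfbp2 fell slightly in Hox-/-, while no difference in Igfbp3 passed the test. Igfbp4 was higher by 0.40 ± 0.06 on the log2 scale (adjusted p = 1.82e-04, edgeR) and Igfbp7 by 1.24 ± 0.15 (adjusted p = 1.17e-05), and Igfbp2 fell by 0.26 ± 0.06 (adjusted p = 0.00458). Igfbp3 differed by -0.03 ± 0.07 (adjusted p = 0.739), with libraries that overlap. Igfbp5, described only, was 2.69 ± 0.08 higher. Besides Igfbp5, 3 of 4 tested members were called, where 46.2% of all tested genes were. The median over all 5 was 0.40, and over all genes 0.0017. The 5 include Igfbp5, on which the family was selected in this contrast, so these medians are no independent comparison. The 14 definitive endoderm markers summed to 1292 to 1302 CPM in wt and 764 to 817 CPM in Hox-/-, with none at the floor, and all 14 were called lower. All 10 pluripotency markers (median -1.89) and all 6 tested visceral endoderm markers (median -2.29) were called lower too. Of 10 caudal progenitor markers 8 were called higher and 2 lower (median 0.73). The 10 mesenchyme and fibroblast markers summed to 302 to 372 CPM in wt and 497 to 521 CPM in Hox-/-, with Lum at the floor in both. Of 7 tested, though, 1 was called higher and 2 lower (median -0.17). Their part in the Igfbp differences was not tested.

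In Activin A gastruloids at 96 h 3 members were lower in Hox-/- and Igfbp3 was higher. Igfbp4 fell by 1.45 ± 0.08 on the log2 scale (adjusted p = 6.18e-22, edgeR), Igfbp5 fell by 0.96 ± 0.11 (adjusted p = 1.68e-10; -0.62 on log2(FPKM + 1)) and Igfbp2 fell by 0.89 ± 0.04 (adjusted p = 1.78e-23). Igfbp3 rose by 0.91 ± 0.04 (adjusted p = 1.95e-26). All 4 tested members were called, where 38.9% of all tested genes were (16.7% as lower), and their median was -0.92 against 0.03 over all genes. The 4 include Igfbp5, whose test reuses the wt level at 96 h that was known at selection, so it is no independent support. The definitive endoderm markers summed to 1367 to 1513 CPM in wt and 619 to 634 CPM in Hox-/-, with 13 of 14 called lower and none at the floor. The part of these cells in the Igfbp differences was not tested.

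At 120 h the pattern had changed: Igfbp4 was now higher and Igfbp3 lower in Hox-/-. Igfbp4 rose by 0.69 ± 0.06 (adjusted p = 1.62e-13, edgeR) and Igfbp3 fell by 0.96 ± 0.08 (adjusted p = 4.20e-14). Igfbp2 fell by 1.29 ± 0.05 (adjusted p = 3.89e-27), and Igfbp5, described only, was lower by a log2 fold change of -3.13 ± 0.05. Besides Igfbp5, all 3 tested members were called, where 50.4% of all tested genes were. The median of the 4 was -1.13, and over all genes -0.02. The 4 include Igfbp5, on which the family was selected in this contrast, so these medians are no independent comparison. For Igfbp4 the log2 fold change was 1.36 on log2(FPKM + 1), above the 0.69 from counts. Definitive endoderm markers summed to 1238 to 1241 CPM in wt and 225 to 230 CPM in Hox-/-, with 12 of 14 called lower and none at the floor. Presomitic and somitic mesoderm markers summed to 781 to 787 CPM in wt and 1959 to 1973 CPM in Hox-/-, with 12 of 14 called higher and none at the floor. Their part was not tested here either.

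**Figure D3:**
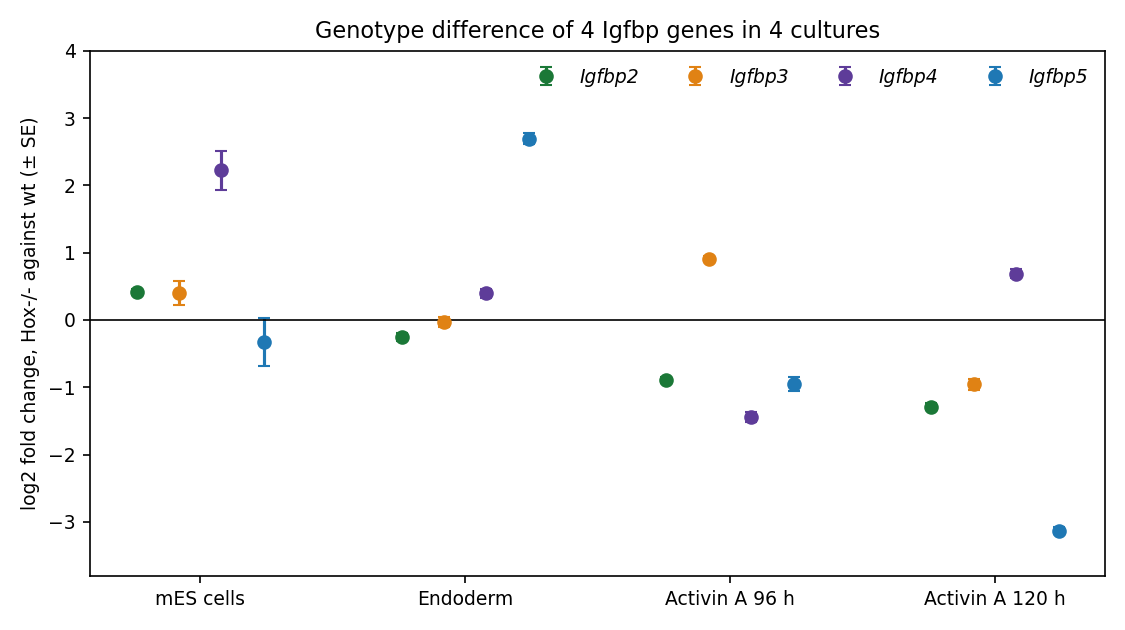
Log2 fold change of Hox-/- against wt (points, with the SE as bars) for 4 Igfbp genes in mES cells, endoderm and Activin A gastruloids at 96 h and 120 h. Igfbp5 changes sign between endoderm (2.69) and gastruloids at 120 h (-3.13), and Igfbp3 and Igfbp4 change sign between 96 h and 120 h.

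The genotype differences were then compared between times and cultures, by testing the difference itself. Between 96 h and 120 h the genotype effect moved down for Igfbp3, by a log2 difference of -1.87 ± 0.09 (adjusted p = 6.34e-23, edgeR interaction), and up for Igfbp4, by 2.13 ± 0.10 (adjusted p = 7.29e-24). For Igfbp2 it moved by -0.40 ± 0.07 (adjusted p = 2.53e-06), a call that limma on log2(FPKM + 1) did not make (-0.28, adjusted p = 0.12). For Igfbp5 the same difference was -2.18 ± 0.13, with no test. All 3 tested members were called, where 38.9% of all tested genes were.

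Between mES cells and endoderm the genotype effect moved by -1.80 ± 0.30 for Igfbp4 (adjusted p = 1.91e-04, edgeR) and by -0.65 ± 0.09 for Igfbp2 (adjusted p = 2.56e-05), which was higher in Hox-/- mES cells and lower in Hox-/- endoderm. For Igfbp7 it moved by 1.01 ± 0.34 (adjusted p = 0.0360), a call lost with DESeq2 (adjusted p = 0.0527) or without wt mES replicate 1 (0.80, adjusted p = 0.232), Hox-/- mES replicate 2 (0.69, adjusted p = 0.186), wt endoderm replicate 1 or 2, or Hox-/- endoderm replicate 1. Igfbp3 did not pass (-0.41 ± 0.20, adjusted p = 0.147). Of 4 tested members 3 were called, where 24.1% of all tested genes were, and Igfbp5 moved by 3.04 ± 0.42 with no test.

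The endoderm cultures differed from mES cells in every tested member. In wt, Igfbp4 rose by 6.98 ± 0.15 on the log2 scale (adjusted p = 3.94e-19, edgeR), Igfbp5 by 4.22 ± 0.19 (adjusted p = 3.35e-14) and Igfbp3 by 3.55 ± 0.12 (adjusted p = 4.53e-16). Igfbp7 rose by 0.91 ± 0.24 (adjusted p = 0.00196) and Igfbp2 by 0.39 ± 0.06 (adjusted p = 1.68e-05). All 5 rose in wt, where 79.9% of all tested genes were called, 41.6% as higher. In Hox-/- cells, Igfbp5 rose by 7.26 ± 0.16 (adjusted p = 4.41e-19), Igfbp4 by 5.18 ± 0.11 (adjusted p = 3.36e-19), Igfbp3 by 3.14 ± 0.12 (adjusted p = 1.48e-15) and Igfbp7 by 1.92 ± 0.21 (adjusted p = 4.52e-08). Igfbp2 fell by 0.26 ± 0.06 (adjusted p = 8.60e-04). Here too all 5 were called, where 80.6% of all tested genes were. Both Igfbp5 rises, in wt and in Hox-/-, reuse endoderm levels that were known at selection. Their p-values, and the place of Igfbp5 in these counts, are no independent support. Summed pluripotency markers fell in the same step from 7797 to 7829 CPM in wt mES cells to 915 to 1059 CPM in wt endoderm, and stood at 279 to 294 CPM in Hox-/- endoderm.

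The gastruloid treatments were compared in wt alone. Activin A gastruloids held more Igfbp2 and Igfbp3 than Chiron gastruloids at 96 h, by 2.94 ± 0.06 and 3.08 ± 0.06 on the log2 scale (adjusted p = 6.70e-22 and 6.57e-23, edgeR). They held less Igfbp4 and Igfbp5, which differed by -1.01 ± 0.06 and -1.29 ± 0.12 (adjusted p = 2.02e-12 and 2.55e-09). On log2(FPKM + 1) the Igfbp4 difference was -1.56. All 4 were called, where 61.6% of all tested genes were. At 120 h Igfbp2 remained higher, by 2.35 ± 0.07 (adjusted p = 1.62e-18), and Igfbp5 lower, by a log2 fold change of -0.85 ± 0.08 (adjusted p = 1.44e-08). Igfbp3 was higher by only 0.45 ± 0.08 (adjusted p = 1.09e-04). Igfbp4 was higher by 0.71 ± 0.08 in counts (adjusted p = 1.16e-07) but by 0.04 on log2(FPKM + 1) (adjusted p = 0.814, limma). All 4 were called in counts at 120 h, where 41.9% of all tested genes were. The 4 wt Activin A libraries serve in these contrasts and in the genotype contrasts alike. The Igfbp5 tests here therefore reuse wt Activin A levels that were known at selection.

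From 96 h to 120 h Igfbp3 fell and Igfbp5 rose in each gastruloid culture. The log2 fold change of Igfbp3 was -3.63 ± 0.05 in wt Activin A gastruloids (adjusted p = 3.22e-46, edgeR), -5.50 ± 0.06 in Hox-/- ones (adjusted p = 1.05e-52) and -1.02 ± 0.07 in Chiron gastruloids (adjusted p = 2.03e-11). By mean CPM these falls were 11.7-fold, 44.8-fold and 1.88-fold. Igfbp5 rose by 3.48 ± 0.08 in Hox-/- Activin A gastruloids (adjusted p = 8.08e-37), by 5.20 ± 0.10 in Chiron gastruloids (adjusted p = 1.75e-21) and, described only, by 5.65 ± 0.06 in wt Activin A gastruloids. Igfbp4 rose by 0.64 ± 0.06 in wt (adjusted p = 1.39e-12) and by 2.78 ± 0.07 in Hox-/- Activin A gastruloids (adjusted p = 1.11e-35) and fell by 1.10 ± 0.07 in Chiron gastruloids (adjusted p = 5.35e-12). Igfbp2 moved least of the 4 in each culture. It fell by 0.53 ± 0.05 in Hox-/- Activin A gastruloids (adjusted p = 6.46e-13) and rose by 0.44 ± 0.07 in Chiron gastruloids (adjusted p = 1.37e-05). In wt Activin A gastruloids it fell by 0.12 ± 0.04 (adjusted p = 0.00923), a change of -0.19 with no filter on low counts. This call was lost when libraries were scaled by total counts alone (adjusted p = 0.310, edgeR). It was lost too with limma on log2(FPKM + 1) (-0.09, adjusted p = 0.337) and on log2(FPKM + 0.1) (-0.09, adjusted p = 0.342). Nor did it hold without wt Activin A replicate 2 of 96 h (-0.11) or of 120 h (-0.09). All tested members were called in each of the 3 time contrasts, where 74.9% (wt Activin A), 72.4% (Hox-/- Activin A) and 61.7% (Chiron) of all tested genes were. The Igfbp5 test in Hox-/- gastruloids reuses the 120 h level that was known at selection, so its p-value is no independent support.

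The change in time also differed between the treatments when that difference was tested. It was lower in Activin A than in Chiron gastruloids by a log2 difference of -2.63 ± 0.10 for Igfbp3 (adjusted p = 7.66e-16, edgeR interaction) and -0.59 ± 0.09 for Igfbp2 (adjusted p = 1.58e-05), and higher by 1.73 ± 0.10 for Igfbp4 (adjusted p = 2.32e-12). All 3 tested members were called, where 39.6% of all tested genes were. For Igfbp5, given without a test, the difference was 0.44 ± 0.15, and it was 0.69 without Chiron replicate 1 of 120 h, 0.24 without its replicate 2 and 0.16 on log2(FPKM + 1).

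**Figure D4:**
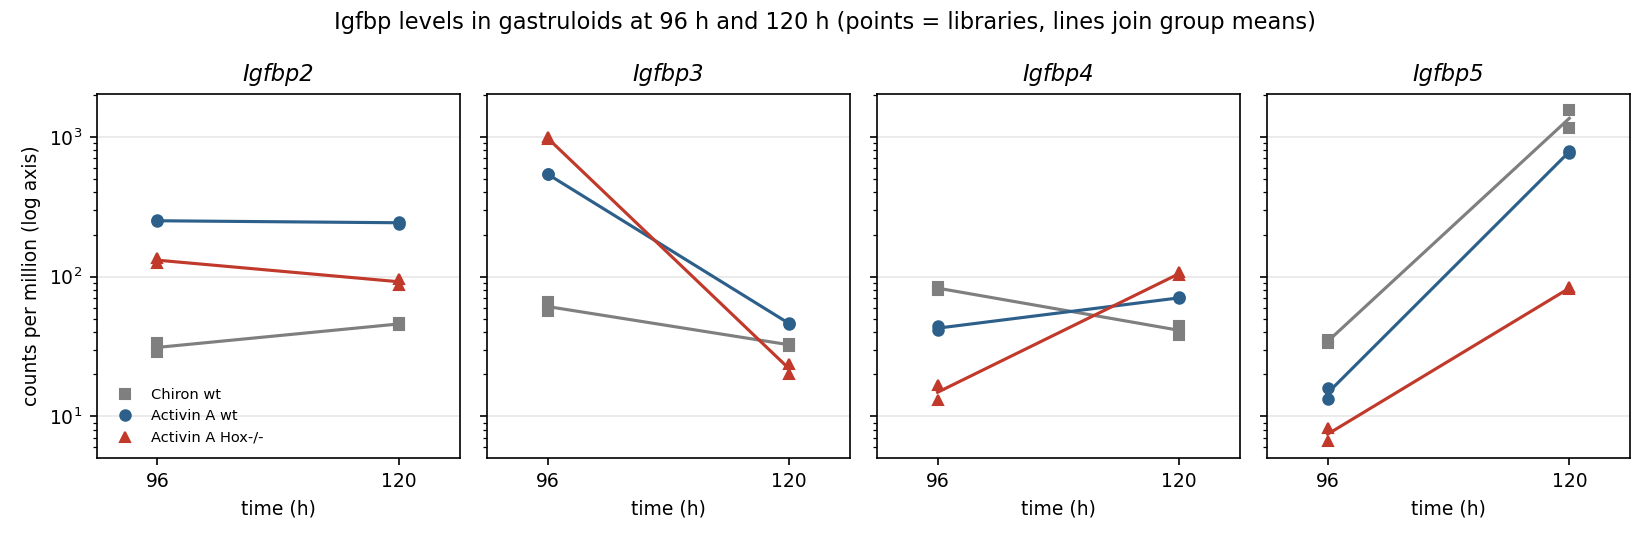
CPM (log axis) of 4 Igfbp genes against time in gastruloids (96 h and 120 h), with points for libraries and lines between group means of wt Chiron (grey), wt Activin A (blue) and Hox-/- Activin A (red). Igfbp3 falls and Igfbp5 rises in all 3 cultures, while the Hox-/- and wt lines cross for Igfbp3 and Igfbp4.

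The proteins that these binding proteins act on were read from lists of the pathway. The list of ligands holds Igf1, Igf2 and 7 insulin-like or relaxin-like genes. Igf2, the main fetal growth factor of the pair, was at the floor in mES cells (0 to 2 counts) and reached 58.2 ± 20.9 CPM in wt and 48.1 ± 8.21 CPM in Hox-/- endoderm (SD, n = 3). In Activin A gastruloids it was 3.06 ± 0.442 CPM in wt and 1.37 ± 0.0461 in Hox-/- at 96 h and 67.3 ± 10.0 and 82.2 ± 3.90 at 120 h (SD, n = 2). Its genotype difference was -1.09 ± 0.24 at 96 h (adjusted p = 2.80e-04, edgeR) and 0.40 ± 0.07 at 120 h (adjusted p = 3.93e-06). In Chiron gastruloids Igf2 was already at 81.5 ± 9.71 CPM at 96 h and 79.1 ± 9.75 at 120 h. Igf1 stayed under 2 CPM in all libraries and was lower in Hox-/- endoderm, at 6 to 12 counts against 15 to 22 (-1.44 ± 0.35, adjusted p = 0.00419). Of 4 tested ligands, 1 was called lower in endoderm (median -0.16; 46.2% of all tested genes called in either direction), 1 lower at 96 h (median 0.03; 38.9%), and 1 higher and 2 lower at 120 h (median -0.38; 50.4%). The 1 tested in mES cells was not called, where 23.2% of all tested genes were.

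Among the 11 receptors and adaptors, 3 adaptors (Irs4, Grb10 and Grb14) were called lower in Hox-/- endoderm and at both gastruloid times. Igf1r, the receptor that carries the growth signal, stood at 18.5 ± 1.45 CPM in wt and 25.8 ± 1.61 in Hox-/- mES cells (0.48 ± 0.10, adjusted p = 3.49e-04). Igf2r, which clears Igf2, was higher in Hox-/- mES cells (0.55 ± 0.05, adjusted p = 4.54e-10) and lower in Hox-/- endoderm, at 130 ± 4.40 against 251 ± 2.52 CPM (-0.94 ± 0.05, adjusted p = 1.25e-09). Irs4, an adaptor of the insulin and Igf1 receptors, fell in Hox-/- endoderm from 46.6 ± 3.75 to 9.89 ± 0.685 CPM (SD, n = 3), a log2 difference of -2.22 ± 0.09 (adjusted p = 9.03e-11). In Activin A gastruloids Irs4 was 21.9 ± 3.47 CPM in wt and 1.08 ± 0.391 in Hox-/- at 96 h (-4.23 ± 0.17, adjusted p = 6.00e-27) and 44.8 ± 2.57 against 3.45 ± 0.00852 at 120 h (-3.58 ± 0.15, adjusted p = 1.86e-26). Grb10, an imprinted adaptor that restrains these receptors, was 205 ± 7.83 CPM in wt and 21.5 ± 0.989 in Hox-/- endoderm (-3.25 ± 0.06, adjusted p = 7.54e-14). Irs4 was at the floor in both mES groups, while Grb10 was at 45.2 and 45.3 CPM there. Of 7 tested genes of this list 2 were called higher and 1 lower in mES cells (median 0.02), where 23.2% of all tested genes were called. Of 11 tested, 3 rose and 4 fell in endoderm (median -0.12, against 46.2% of all genes called), 1 rose and 5 fell at 96 h (median -0.15, against 38.9%), and 4 rose and 5 fell at 120 h (median -0.18, against 50.4%).

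The proteases and partners of the binding proteins, 14 genes, had 5 members called higher and 3 lower of 9 tested in Hox-/- endoderm (median 0.60), where 46.2% of all tested genes were called. Htra1, a serine protease that cuts binding proteins of this family, was 13.7 ± 1.23 CPM in wt and 42.6 ± 2.91 in Hox-/- endoderm (1.64 ± 0.09, adjusted p = 2.48e-09). Its relative Htra3 was 7.99 ± 1.57 and 26.0 ± 0.721 (1.70 ± 0.11, adjusted p = 2.70e-08), and Adam12, a metalloprotease, was 4.36 ± 0.366 and 11.1 ± 1.04 (1.37 ± 0.13, adjusted p = 1.01e-06). Not all proteases rose there: Pappa, which cuts Igfbp4 and Igfbp5, was lower in Hox-/- endoderm, at 4.66 ± 0.380 against 7.11 ± 0.737 CPM (-0.60 ± 0.14, adjusted p = 0.00276). Pappa was also lower in Hox-/- gastruloids at 96 h, at 0.792 ± 0.393 against 2.78 ± 0.532 CPM (-1.83 ± 0.30, adjusted p = 2.55e-06), and reached 20.9 ± 0.386 CPM in wt and 25.6 ± 5.38 in Hox-/- at 120 h. Stc2, an inhibitor of Pappa, was 4.72 ± 0.474 CPM in wt and 11.1 ± 0.639 in Hox-/- mES cells (1.23 ± 0.16, adjusted p = 2.15e-07). Of the tested members of this list, 1 rose and 1 fell of 6 in mES cells (median -0.07, against 23.2% of all genes called), 1 rose and 3 fell of 12 at 96 h (median -0.45, against 38.9%), and 3 rose and 4 fell of 12 at 120 h (median -0.19, against 50.4%).

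The genes that share the amino-terminal IGFBP domain, 11 in the list, were called as follows. In Hox-/- endoderm 1 of 7 tested was called, Ccn4, a secreted matrix protein, which rose by 0.70 ± 0.15 (adjusted p = 0.00129, edgeR). At 96 h 1 of 5 rose, Crim1 by 0.81 ± 0.09 (adjusted p = 5.65e-10), and 1 fell, Igfbpl1 by a log2 fold change of -0.64 ± 0.11 (adjusted p = 2.10e-06). At 120 h 3 of 5 fell, led by Ccn2 at -1.30 ± 0.17 (adjusted p = 1.20e-08), and in mES cells 0 of 4 tested were called. Of the 5 genes whose products bind Igf2 mRNA or regulate it, 3 rose at 120 h, led by Igf2bp1 at 0.60 ± 0.05 (adjusted p = 1.16e-15). At 96 h 3 rose and 1 fell, Igf2bp2 at -0.56 ± 0.05 (adjusted p = 8.55e-13). In endoderm 1 rose and 1 fell, and in mES cells 2 fell. The shares of all tested genes called, against which the counts of both lists stand, were 46.2% in endoderm, 38.9% at 96 h, 50.4% at 120 h and 23.2% in mES cells.

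**Figure D5:**
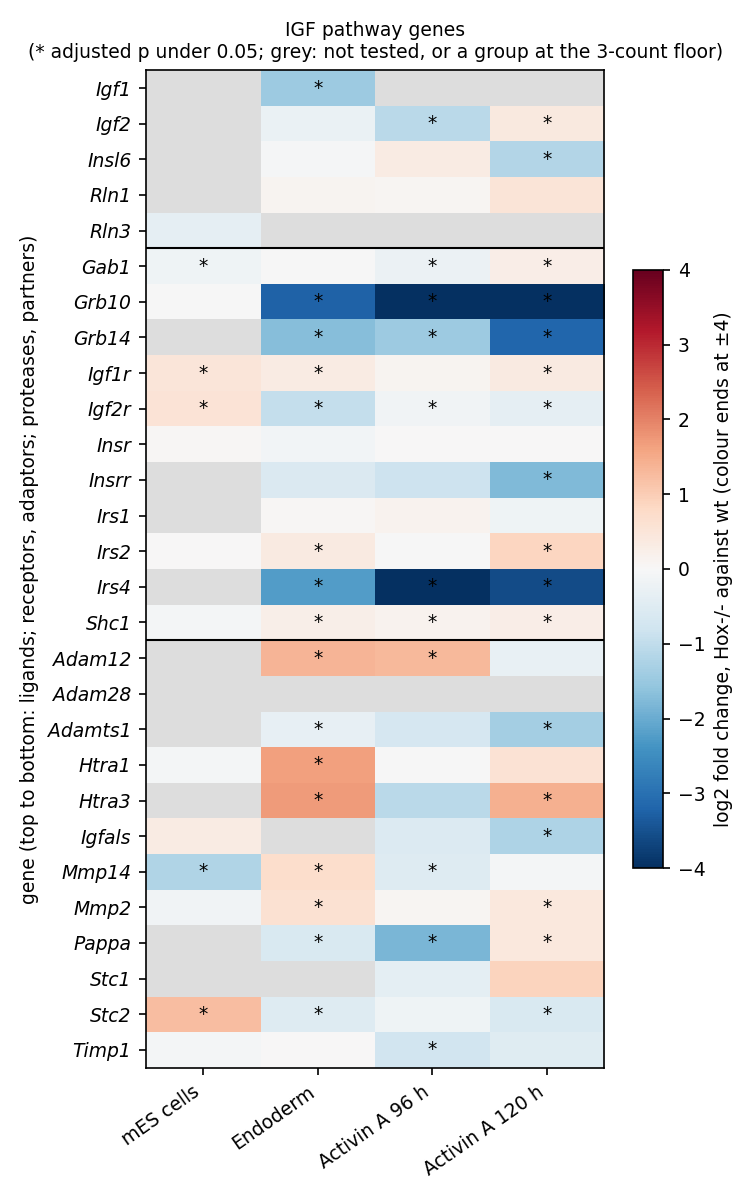
Log2 fold change of Hox-/- against wt (colour, ending at ±4) for the ligands, the receptors and adaptors, and the proteases and partners, in 4 cultures. Stars mark an adjusted p under 0.05, and grey marks genes not tested or with a group at the floor. Irs4, Grb10 and Grb14 are lower in endoderm and both gastruloid times, and Htra1, Htra3 and Adam12 are higher in Hox-/- endoderm.

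Genes with a pattern like that of a member were sought over the 10 group means of log2(CPM + 1), among 3998 genes with at least 10 CPM in some group and a range of at least 2 log2 units. Ppp4r4 (r = 0.987), Nfasc (r = 0.985) and Scly (r = 0.983) were most like Igfbp3, and Ppp4r4 also peaked in Hox-/- Activin A gastruloids at 96 h, at 213 CPM. The transcription factor gene Tbx2 was most like Igfbp5 (r = 0.983), at a far lower level, 11.3 CPM in Chiron gastruloids at 120 h, followed by Pacc1 (r = 0.971) and Zfp672 (r = 0.962). Igfbp4 was most like 1700025G04Rik (r = 0.981), Capn2 (r = 0.974) and Gpc3 (r = 0.974), a cell-surface proteoglycan at 788 CPM in wt endoderm. Igfbp2 had weaker partners, Atp10d (r = 0.946), Prxl2a (r = 0.919) and Bcar3 (r = 0.915). Igfbp7 was most like Itgav (r = 0.972), Myh9 (r = 0.965) and Slc38a4 (r = 0.965), all highest in Hox-/- endoderm. These are descriptions over 10 points whose libraries share culture and depth.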

How the data were processed

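Gene counts from 22 poly(A) RNA-seq libraries (TruSeq stranded kit, per the labels' protocols) were deposited by the authors as whole-number counts per Ensembl gene, not normalized, in 4 tables with FPKM tables beside them. The FPKM values deposited by the authors are scaled by transcript length and library total. Per the submitters' processing notes cutadapt 1.16, STAR, Cufflinks 2.2.1 and the mm10 build were used, while the counting tool and its strand setting are not given in the sources used here. Symbols and positions come from the FPKM tables, joined by gene ID, and 93.6% of all positions equal those of GENCODE M21.

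Counts were tested with edgeR 4.0.16 (R 4.3.3; filterByExpr, TMM, quasi-likelihood test), one coefficient per group, with Benjamini-Hochberg adjustment over all genes tested, and genes are called below an adjusted p of 0.05. Separate fits were made for mES cells and for endoderm, each gastruloid table with its 4 groups together, and mES with endoderm in one fit for the contrasts between them, 14 contrasts in all. The 4 wt Activin A libraries stand in both gastruloid tables. An SE is the log2 fold change divided by the root of F. CPM divide counts by the library total. The floor covers counting error only, and the chi-square per degree of freedom between replicates was 1.37 to 10.3.

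The members and pathway lists (ligands, receptors and adaptors, proteases and partners, IGFBP-domain genes, Igf2 mRNA binding) were chosen with earlier results of these data known. So were the marker lists for pluripotency, definitive endoderm, visceral endoderm, caudal progenitors, presomitic and somitic mesoderm, and mesenchyme and fibroblast. Further marker lists, chosen likewise, covered neural, floor plate and notochord, cardiac, and endothelial and blood genes. All 7 members are named. Called genes of the pathway lists are named from the 4 with the largest changes per list and contrast, and Pappa in endoderm is named besides. Likeness names 3 genes per member. Alternatives were RLE factors, total counts alone, no filter, at least 10 counts in all libraries, DESeq2 1.42.0, the replicate number as a block, limma 3.58.1 on log2(FPKM + 1) and log2(FPKM + 0.1) with at least 1 FPKM, fits on only the groups compared, and each library left out. The code was tested on simulated data.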

Additional observations from a re-analysis of the deposited data

Results flagged for a closer look

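For 3 members the genotype difference in Activin A gastruloids was not the same at 96 h and 120 h, by an edgeR test of the difference itself. It moved by a log2 difference of -0.404 for Igfbp2, -1.87 for Igfbp3 and 2.13 for Igfbp4 (adjusted p = 2.53e-06, 6.34e-23 and 7.29e-24). In wt gastruloids the difference between Activin A and Chiron also changed with time, by -0.586 for Igfbp2, -2.63 for Igfbp3 and 1.73 for Igfbp4 (adjusted p = 1.58e-05, 7.66e-16 and 2.32e-12, edgeR). Both sets of values use the same 4 wt Activin A libraries. Between mES cells and endoderm the genotype difference changed by -0.651 for Igfbp2, -1.8 for Igfbp4 and 1.01 for Igfbp7 (adjusted p = 2.56e-05, 1.91e-04 and 0.0360, edgeR), and the Igfbp7 value rests on counts that the authors' FPKM list at 0.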

How the results depend on the processing

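Of 189 recomputed counts of called members 187 stayed within 1.5 times the reported count. The exceptions were in mES cells, where limma on FPKM with a pseudocount of 1 or 0.1 called 1 of 3 members tested, against 2 of 5 in counts. Leaving out each library left all counts within 1.5 times. With the replicate number as a block 2 members were called in mES cells, 4 in endoderm, 4 at 96 h and 4 at 120 h, as without it. These counts and the 189 above include Igfbp5, also in the contrasts where it is described only. There they are no independent support. Same-numbered samples are tied by the number alone: correlations of their deviations from the group means ran from -0.243 to 0.230, so the block does not describe a pairing. Of 61 effects of single members 58 kept direction in all alternatives run, and 47 kept direction and call. Where Igfbp5 was described only it had no call. There, a shift of its log2 fold change beyond a limit set from its SE counted as not kept. The exceptions in direction, with their log2 ranges when each library was left out, were Igfbp5 in mES cells (-1.005 to 0.0858, positive without Hox-/- replicate 2), Igfbp7 in mES cells (-0.206 to 0.562, negative without Hox-/- replicate 1) and Igfbp3 in endoderm (-0.0905 to 0.0346, positive without Hox-/- replicate 2, and 0.00823 without wt replicate 1), none of them called, and the cause was not tested. Scaling by total counts alone moved the median of all genes by -0.11 in the 120 h genotype contrast, by 0.104 for Chiron time and by 0.117 for wt endoderm against mES cells, and no member changed direction with it. FPKM fits were not made across the mES and endoderm tables. Depth limits Igfbp1 and Igfbp6, which stayed near the floor.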
